A study of Glycine max with 6 samples.

Results

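At 1516 loci of the soybean genome, chromatin immunoprecipitation with sequencing (ChIP-seq) placed a peak in every library, but the points of highest enrichment did not coincide. Both proteins, GLYMA.06G314400 and GLYMA.13G317000, had exactly 1 peak per replicate at each of these loci. The loci were chosen in 3 steps from the 4 deposited peak lists. Peaks that overlapped by 1 bp or more were merged into loci, which gave 70952 loci in all. Of these, 31333 held exactly 1 peak in each list, and 31153 of these were under 1500 bp wide. The latter are called narrow shared loci below. Those whose 4 summits spanned more than 150 bp, 4.87% of the narrow shared loci, are called displaced loci.

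All samples were embryos of the cultivar Williams 82 at the early maturation stage, dissected from seeds of 6 to 7 mm and fixed in 1% formaldehyde. Chromatin sheared to 100 to 500 bp was precipitated with an antibody raised on residues 302 to 316 for GLYMA.06G314400, or on residues 1 to 15 for GLYMA.13G317000. There were 2 biological replicates per protein, and 2 input samples that had no peak list of their own. For GLYMA.06G314400 the lists held 60812 peaks (replicate 1) and 53281 peaks (replicate 2), for GLYMA.13G317000 58036 and 41859. No genotype or treatment differed between the samples, and whole embryos mix cell types. The antibody amount was 3 µg for GLYMA.06G314400 and 2 µg for GLYMA.13G317000. Each protein had its own antibody, so a difference between the proteins cannot be told apart from one between the antibodies. Read depth is unknown, which limits how firmly any single summit can be placed.

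A ChIP-seq peak is a stretch in which recovered fragments pile up over the local background, and its summit is the base with the deepest pile. The protein or its DNA contact usually lies close to the summit, because fragments from many cells overlap there. Maturation is the phase of seed development in which the embryo, its body plan already laid down, accumulates storage protein and oil. Each peak of these lists stores 1 summit, so a stretch with several enriched points is recorded only at its highest. No source used here names the genome build of the positions below, and genes and DNA sequence at the loci are not analysed here.

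Summits of displaced loci spanned a median of 231 bp (quartiles 176 and 347 bp) and at most 927 bp, against a median of 41 bp over all narrow shared loci. These spans chose the loci and are a description only. A span over 150 and up to 200 bp was found in 572 displaced loci, over 200 and up to 300 bp in 422, over 300 and up to 400 bp in 260, over 400 and up to 500 bp in 172, and over 500 bp in 90. The number of loci was highest at spans over 20 and up to 30 bp and fell from there, with 8706 loci at spans over 50 and up to 100 bp and 1957 over 100 and up to 150 bp.

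**Figure D1:**
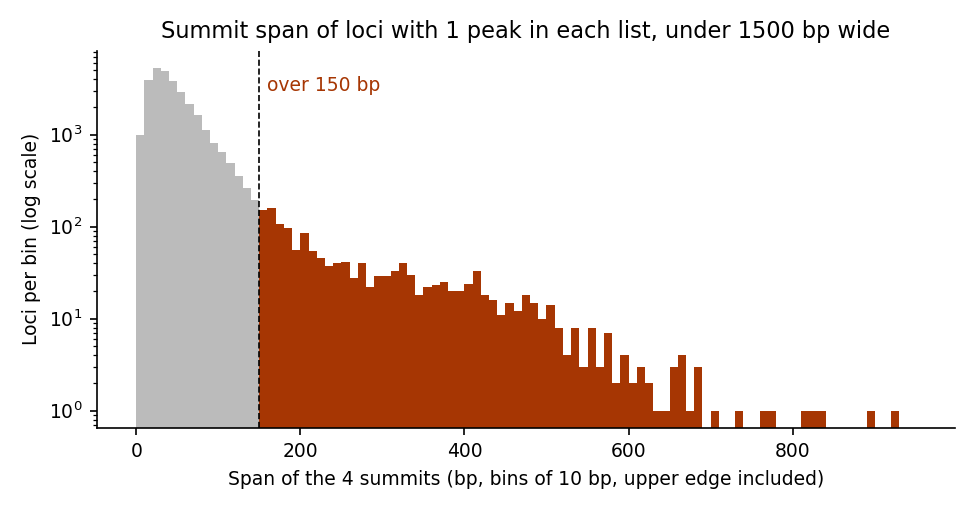
Number of narrow shared loci (log scale) by the span of their 4 summits in bp, in bins of 10 bp, with the displaced loci in brown to the right of the 150 bp limit. The count is highest at spans over 20 and up to 30 bp and falls from there, with the widest span at 927 bp.

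Loci lay on both sides of the limit without a break. Just inside, with a span of 151 bp, lay a locus of chromosome 17 (4082415 to 4083398), in which GLYMA.06G314400 replicate 1 had its summit 124 bp from the nearest of the others. Fold enrichment, the authors' ratio of the pile at the summit to its local background, was 15.0 and 15.3 there with GLYMA.06G314400, replicate 1 first, and 10.5 and 6.99 with GLYMA.13G317000. The other named loci at this span lay on chromosomes 16 (26149325 to 26150189) and 7 (1451710 to 1452414). Just outside, with a span of 150 bp, lay loci of chromosomes 14 (5040232 to 5041335), 10 (11736280 to 11737058) and 12 (15835331 to 15836610). Spans over 140 and up to 150 bp occurred in 195 loci and spans over 150 and up to 160 bp in 153.

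In most displaced loci 1 list stood apart from the other 3, as in most narrow shared loci. For each locus, the sorted summits were cut at their largest gap. In 1113 displaced loci (73.4%) this left 1 summit on one side and 3 on the other, and in 399 (26.3%) it left 2 on each side. In 4 loci gaps of equal length gave no unique cut. Among the 399 loci, both summits of one protein lay on one side and both of the other protein on the other side in 261, or 65.4%. The summits were divided by replicate number, with both replicate 1 lists on one side, in 75, and crossed, with replicate 1 of one protein beside replicate 2 of the other, in 63.

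The same 3 divisions exist in any 4 lists, so the crossed one serves as a measure of what the other 2 hold without a shared protein or a shared number. Division by protein made up 17.2% of displaced loci, against 4.95% by replicate number and 4.16% crossed. Over all narrow shared loci the shares were 10.7%, 7.90% and 7.49%. With 3 possible ways to pair 4 lists, an exact permutation test of the share divided by protein gives p = 0.33, the smallest it allows, so the excess cannot be tested further with 2 replicates per protein. The share comes from the summits that chose the loci. Division by protein was the most frequent of the 3 on 20 of 20 chromosomes. It made up 17.3% ± 4.38 of the displaced loci (SD over 20 chromosomes). All chromosomes share the same 4 lists, so they are not replicates, and no background of this division was computed by chromosome.

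**Figure D2:**
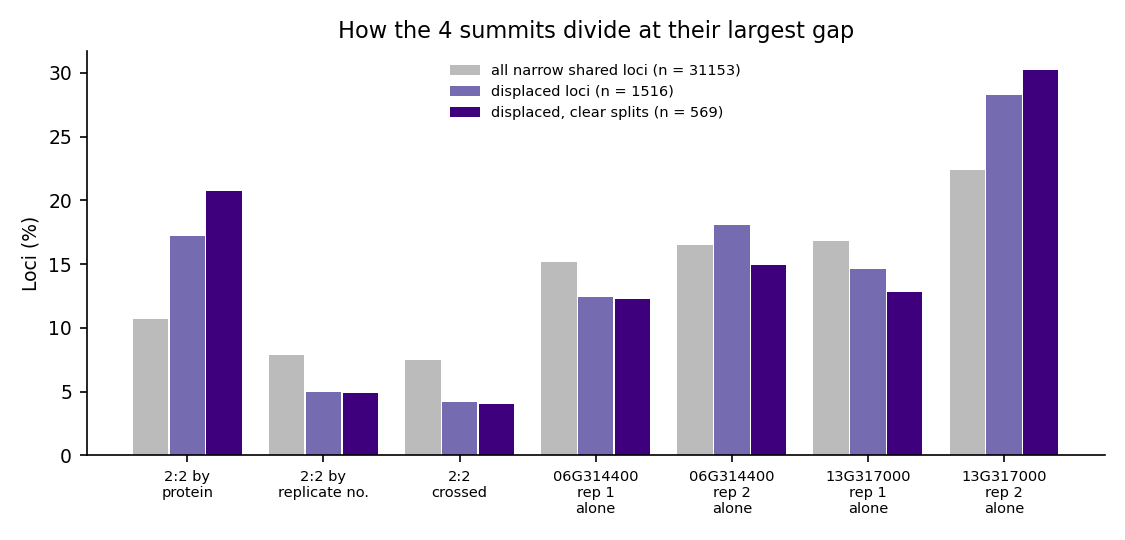
Percent of loci in which the largest gap between the sorted summits divides the lists 2 to 2 by protein, by replicate number or crossed, or leaves 1 list alone, for all narrow shared loci (grey), the displaced loci (violet) and those with clear splits (dark). Division by protein stands at 17.2% of displaced loci and 20.7% of clear splits, above the other 2 to 2 divisions, and replicate 2 of GLYMA.13G317000 is the list most often alone.

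Sums of squares had the same order, but they use the same summit positions that chose the loci and are a description only. Protein accounted for 43.4% of the squared displacement of a displaced locus on average, replicate number for 28.6% and their interaction, which is the crossed division, for 27.9%. Pooled over loci, in which wide spans weigh more, the parts were 47.9%, 27.2% and 24.9%. Protein took more than 90% of the squares in 209 loci, replicate number in 51 and the interaction in 42. The parts were not computed over all narrow shared loci, where division by protein also led, at 10.7% against 7.90% and 7.49%. A locus in which 1 list stands alone contributes equally to all 3 parts where the other 3 summits coincide.

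Distances between pairs of lists come from the summits that chose the loci and are a description only. The summits of the replicates of GLYMA.06G314400 were closest, with a median of 73 bp (quartiles 25 and 157 bp) in displaced loci. Those of the replicates of GLYMA.13G317000 were a median of 103 bp apart (39 and 200 bp). Between the proteins, the medians were 94 bp for both replicate 1 lists and 162 bp for both replicate 2 lists, 146 bp for GLYMA.06G314400 replicate 1 with GLYMA.13G317000 replicate 2, and 117 bp for the reverse. One of the 4 distances between the proteins was thus below the distance between the replicates of GLYMA.13G317000. Summits over 150 bp apart occurred in 27.5% of displaced loci between the replicates of GLYMA.06G314400 and in 38.9% between those of GLYMA.13G317000. Between the proteins the share was 35.0% to 55.3%. The backgrounds over all narrow shared loci are 1.34%, 1.89% and 1.70% to 2.69% in the same order. At narrow shared loci that were not displaced, the median distance was 17 to 20 bp in every pair.

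The mean distance within a protein was 128 bp, and that between lists of the same number 162 bp and between lists that share neither 166 bp. Taken locus by locus, the mean distance between the proteins exceeded that within them by 35.6 bp on average, but the median of this difference was −1 bp. Mean and median thus differed in sign, and where 1 list stands alone both distances are equal by construction if the other 3 summits coincide. The median was 85.8 bp without replicate 1 of GLYMA.13G317000 and 7.5 bp without its replicate 2. Without replicate 1 of GLYMA.06G314400 it was −4.25 bp, and without its replicate 2 −12.5 bp. Each omission chose the loci anew from the remaining 3 lists. The exact permutation test over the 3 pairings gives p = 0.33 for the median with no list omitted, again the smallest possible. It only ranks −1 bp above the medians of −11 bp by replicate number and −13 bp crossed. The test uses the summits that chose the loci, so no separation of the proteins can be read from it. The 2 proteins' summits did not overlap, with both summits of one on the same side of both of the other, in 710 displaced loci (46.8%). The background over all narrow shared loci is 36.1%. The same count was 408 (26.9%) by replicate number, where the background is 30.5%, and 389 (25.7%) crossed, where it is 29.8%.

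In 569 displaced loci the summits fell into 2 tight groups, with a gap over 100 bp and no more than 50 bp between the summits on either side. Such clear splits made up 37.5% of displaced loci and 2.48% of all narrow shared loci, 772 in number. A gap over 100 bp needs a span over 100 bp, so the choice of the loci favours clear splits. This contrast, and those of the single kinds of clear split below, are a description only. In the other 947 the summits were scattered: the largest gap was 100 bp or less in 292, and a group was wider than 50 bp in 655. The name displaced therefore covers loci with 2 separate points and, more often, loci with no tight grouping. Clear splits were by protein in 118 loci, by replicate number in 28 and crossed in 23, where the backgrounds are 0.427%, 0.106% and 0.103%. Of the 169 clear 2 to 2 splits, 69.8% were by protein. Over all narrow shared loci the counts were 133, 33 and 32, largely the same loci and in much the same proportions.

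At the 118 loci with a clear split by protein, replicates lay close and the proteins apart, as the definition of a clear split requires. The median distance between replicate summits was 20 bp with GLYMA.06G314400 and 19 bp with GLYMA.13G317000, and between the proteins it was 265 to 274 bp over the 4 pairs of lists. The gap between the groups had a median of 247 bp (quartiles 141 and 377 bp) and reached 763 bp. It was over 100 and up to 150 bp in 33 loci, up to 200 bp in 18 more, up to 300 bp in 20 more, up to 400 bp in 25 more and above that in 22. GLYMA.06G314400 lay at the lower coordinate in 64 loci and GLYMA.13G317000 in 54, so neither order prevailed along the chromosome. The strand of a nearby gene is not known here, and an order relative to transcription could not be read.

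**Figure D3:**
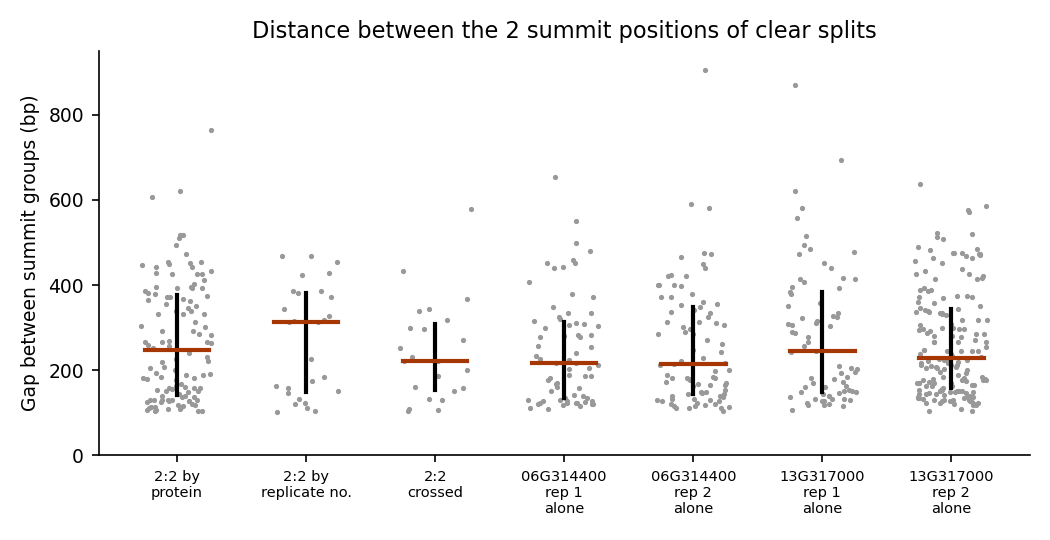
Gap in bp between the 2 groups of summits in each clear split, by how the lists divide, with 1 point per locus, the median as a horizontal bar and the quartiles as a vertical bar. Medians lie between 214 and 314 bp and the ranges overlap in all 7 divisions.

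Splits of the other kinds had gaps in the same range. Its median was 314 bp in the 28 loci split by replicate number (quartiles 149 and 382 bp) and 222 bp in the 23 crossed loci (155 and 309 bp). Where 1 list stood alone, the medians were 218, 214, 244 and 229 bp, in the order replicates 1 and 2 of GLYMA.06G314400 and replicates 1 and 2 of GLYMA.13G317000. The quartile ranges of all 7 divisions overlapped. These gaps come from the values that chose the loci, and no test was made.

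The strongest clear splits by protein lay in the upper ranks of every list. On chromosome 2 from 14708904 to 14709967, the summits of GLYMA.06G314400 were at 14709370 and 14709407 in replicates 1 and 2, and those of GLYMA.13G317000 at 14709526 and 14709563. The fold enrichments, here and below with replicate 1 first, were 32.4 and 31.0 with GLYMA.06G314400, and GLYMA.13G317000 had 29.0 and 18.8. The gap of 119 bp was about 3 times the 37 bp between the replicates of each protein. On chromosome 18 from 443673 to 444785, GLYMA.06G314400 had its summits at 444502 and 444503 and GLYMA.13G317000 at 444067 and 444075. The fold enrichments there were 25.3 and 32.2, and 24.8 and 14.4. Replicates met within 8 bp at this locus, while the proteins lay 427 bp apart.

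The other 4 named loci of this kind had gaps of 129 to 518 bp. On chromosome 5 from 5056383 to 5057564, both replicates of GLYMA.06G314400 had their summit at 5056888, with fold enrichments of 34.9 and 29.7, and GLYMA.13G317000 at 5057089 and 5057097, with 19.1 and 16.4. The widest separation of the 6, a gap of 518 bp, was found on chromosome 1 from 42972977 to 42974307. Its summits were at 42973408 and 42973399 with GLYMA.06G314400 and at 42973926 and 42973952 with GLYMA.13G317000, and the fold enrichments were 24.5, 24.0, 21.9 and 19.5 in that order. On chromosome 17 from 33551488 to 33552469 the proteins lay 129 bp apart, with GLYMA.13G317000 at 33551852 and 33551874 and GLYMA.06G314400 at 33552003 and 33552014. Its fold enrichments were 22.6 and 23.8 for the latter, 17.1 and 12.6 for the former. On chromosome 20 from 38622844 to 38624038, both GLYMA.06G314400 summits were at 38623273 (25.8 and 29.3) and those of GLYMA.13G317000 at 38623649 and 38623611 (15.7 and 13.6). At all 6 loci, every one of the 4 peaks covered all 4 summits, so the point that was highest for one protein lay inside the peaks of the other.

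**Figure D4:**
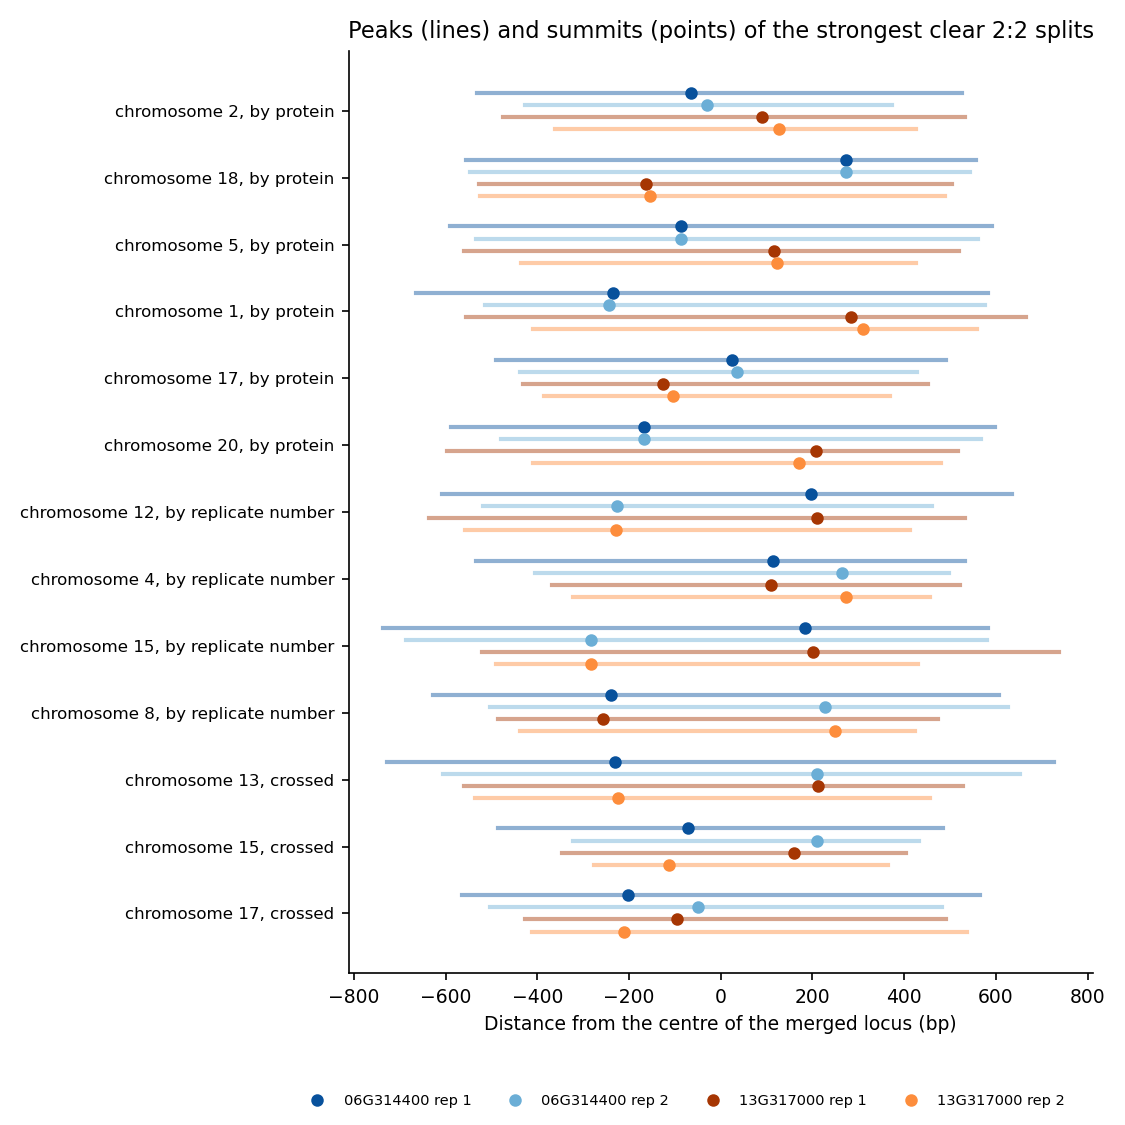
Extent of the peaks (lines) and position of the summits (points) in the 4 lists, in bp from the centre of the merged locus, at the 6 strongest clear splits by protein, the 4 strongest by replicate number and the 3 strongest crossed. Peak outlines overlap over most of each locus, while the summits sit at 2 separate points, from 107 to 518 bp apart.

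Equally tight splits occurred between replicates. On chromosome 12 from 15516177 to 15517448, both replicate 1 lists had their summit near one point, at 15517009 with GLYMA.06G314400 and 15517022 with GLYMA.13G317000, and both replicate 2 lists near another, at 15516586 and 15516585. Fold enrichments were 19.4 and 16.8 for GLYMA.06G314400, and GLYMA.13G317000 had 20.2 and 9.61. The gap was 423 bp, above the upper quartile of 377 bp in clear splits by protein. On chromosome 15 from 6290590 to 6292063, replicate 2 of both proteins had its summit at the same base, 6291043. Replicate 1 lay at 6291510 with GLYMA.06G314400 and at 6291528 with GLYMA.13G317000. The fold enrichments of this locus were 17.6 and 22.7 for GLYMA.06G314400, and 11.2 and 10.99 for GLYMA.13G317000. Gaps of 150 and 467 bp separated the numbers on chromosomes 4 (47657744 to 47658810) and 8 (17144755 to 17146008). At these loci the replicates of one protein lay apart, and those of the other protein lay apart in the same way.

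Crossed splits, which neither protein nor number accounts for, were as sharp. The strongest, on chromosome 13 from 38375941 to 38377395, had GLYMA.06G314400 replicate 1 at 38376437 and GLYMA.13G317000 replicate 2 at 38376445, and the other 2 lists at 38376879 and 38376881. Fold enrichments were high in every list, with 27.2 and 36.5 for GLYMA.06G314400 and 31.1 and 15.6 for GLYMA.13G317000. The remaining named crossed loci had gaps of 231 bp on chromosome 15 (13214017 to 13214986) and 107 bp on chromosome 17 (1959202 to 1960332).

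Replicate 2 of GLYMA.13G317000, which had the fewest peaks and the lowest median peak width (373 bp, others 422 to 512 bp), was the one that most often stood alone. It did so in 429 displaced loci (28.3%), against a background of 22.4%. Replicate 2 of GLYMA.06G314400 stood alone in 274 (18.1%, background 16.5%), replicate 1 of GLYMA.13G317000 in 222 (14.6%, background 16.8%) and replicate 1 of GLYMA.06G314400 in 188 (12.4%, background 15.2%). Among the 400 clear splits of this kind, the counts in the same order were 172, 85, 73 and 70, where the backgrounds over narrow shared loci are 0.774%, 0.379%, 0.343% and 0.347%. These backgrounds correspond to 241, 118, 107 and 108 loci, in much the same proportions. Without this list, 1649 loci were displaced over the other 3, and the lone list of GLYMA.13G317000 stood apart in 43.1% of them, against 23.8% and 33.1% for the lists of GLYMA.06G314400. The list of the protein left with 1 replicate was also the one most often apart when any other list was omitted, but by 39.6% against 38.3% without GLYMA.06G314400 replicate 2. The part of list length and peak width in these counts was not tested.

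A summit could stand alone at strong loci as well. On chromosome 6 from 48982199 to 48983453, replicate 1 of GLYMA.13G317000 had its summit at 48983059, and the other 3 lists at 48982572, 48982574 and 48982561, 485 bp away or more. Fold enrichments there were 28.7, 41.4, 21.0 and 14.1, in the order replicates 1 and 2 of GLYMA.06G314400 and then of GLYMA.13G317000. On chromosome 4 from 4866072 to 4867148, replicate 2 of GLYMA.13G317000 lay at 4866755, 291 bp from the nearest of the others at 4866440, 4866464 and 4866446, with fold enrichments of 26.5, 34.9, 21.2 and 15.0 in that order. Of GLYMA.06G314400, replicate 1 stood alone by 121 bp on chromosome 20 (1108009 to 1109113) and by 187 bp on chromosome 4 (49763118 to 49764153), and replicate 2 by 138 bp on chromosome 8 (35948327 to 35949494) and by 145 bp on chromosome 18 (46627203 to 46628370). Replicate 1 of GLYMA.13G317000 stood alone by 309 bp on chromosome 2 (11957006 to 11958132), and its replicate 2 by 125 bp on chromosome 18 (55618831 to 55619865). In each of these 8 loci the other replicate of the same protein lay with the lists of the other protein.

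The 3 widest spans were not at the strongest loci, with percentiles from 0.934 to 75.3 in single lists. On chromosome 2 from 8538100 to 8539400, replicate 2 of GLYMA.06G314400 had its summit at 8538279, 905 bp from the other 3 lists at 8539184, 8539185 and 8539206. Fold enrichments there were 6.17, 3.43, 4.77 and 3.68 in the order of the lists, and not all peaks of this locus covered all summits. On chromosome 7 from 569859 to 571357, the lone summit was that of GLYMA.13G317000 replicate 1, 869 bp from the next, with fold enrichments of 14.0, 15.2, 12.3 and 8.94 in the order of the lists. The last of the 3, on chromosome 11 from 494557 to 495933, was split by protein, with GLYMA.06G314400 at 494873 and 494911 (14.4 and 14.2) and GLYMA.13G317000 at 495674 and 495705 (9.33 and 6.94).

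Fold enrichment, which was not used to choose the loci, was lower at displaced loci in every list. For GLYMA.06G314400 its median was 5.89 and 5.96, against 10.2 and 10.7 at the other narrow shared loci. Displaced loci of GLYMA.13G317000 had medians of 5.45 and 4.19, and the others 8.39 and 5.86. Ranked within each list over the narrow shared loci, where 100 is the strongest, displaced loci had a median percentile of 20.1, 17.7, 21.3 and 24.6, and the others of 51.2 to 51.6. The difference was −30.6 ± 3.10 percentile points (SD over 4 lists), negative in 4 of 4 (exact permutation p = 0.13, two-sided, rounded, the smallest that 4 lists allow). The ranges overlapped, and displaced loci reached fold enrichments of 35.3, 45.5, 31.1 and 22.4 in the 4 lists.

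Displacement became rarer with strength, with 1 exception. Narrow shared loci were ordered by the mean of their 4 percentiles and put into 10 groups of about equal size. In the weakest group 16.3% were displaced, in the next 9.02%, in the fifth 3.88% and in the strongest 0.610%. The exception was the eighth group, with 2.28% after 2.15% in the seventh. The median span fell over the same groups, from 77 bp in the weakest to 25 bp in the strongest. All 4 percentiles were above 50 at 178 displaced loci (11.7%), where the background is 37.2%, and above 90 at 11 of them, where the background is 6.05%.

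**Figure D5:**
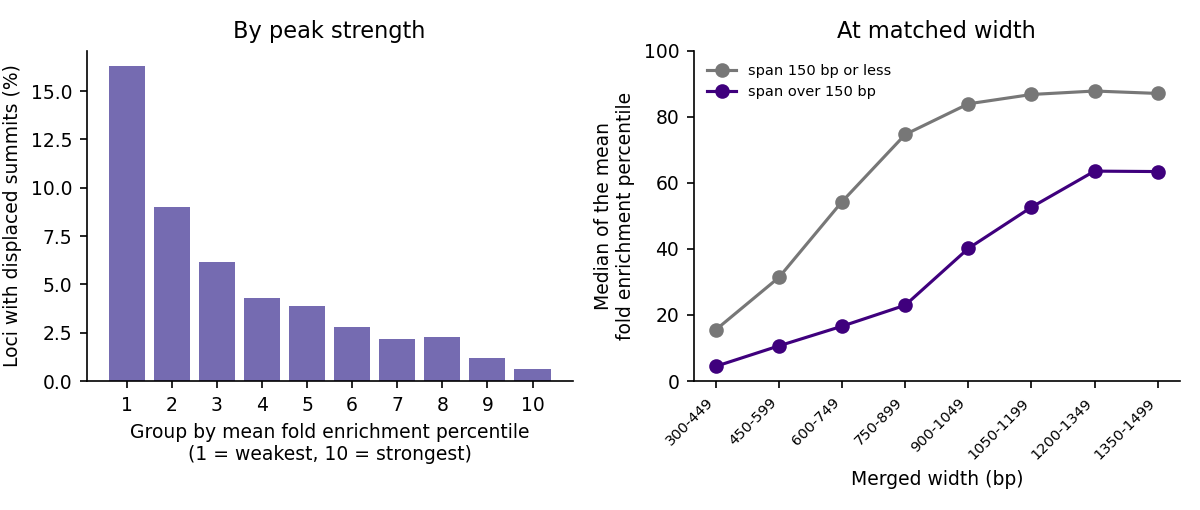
Left, percent of narrow shared loci with displaced summits in 10 groups by mean fold enrichment percentile, from 16.3% in the weakest to 0.610% in the strongest. Right, median of the mean percentile (0 to 100) in bins of merged width in bp, for displaced loci (violet) and other narrow shared loci (grey), with the displaced loci lower in all 8 bins.

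Displaced loci were weaker although they were wider. Their merged width had a median of 765 bp, against 660 bp for the others, and a wide locus leaves more room for a long span, so width is tied to the choice of the loci. The share of displaced loci rose from 0.991% at widths of 300 to 449 bp to 10.7% at 1350 to 1499 bp. At matched width the difference in strength was larger in the middle of the range. Between 750 and 899 bp, displaced loci had a median mean percentile of 23.0 and the others of 74.7, and the difference was negative in 4 of 4 lists in each of 8 width bins, by 10.3 to 52.0 percentile points on average.

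Division by protein was the most frequent 2 to 2 division at strong displaced loci too. It accounted for 22.5% of the 178 loci above the middle percentile in all lists. Division by replicate number made up 3.93% and crossed division 6.18%, and the clear splits were 29, 5 and 4 in that order. In 67.4% of the 178 loci 1 list stood alone, and GLYMA.13G317000 replicate 2 did so in 22.5%, the same share as division by protein. Clear splits of any kind were more frequent among the stronger loci, at 54.9% of the 379 displaced loci of highest mean percentile and 23.2% of the 379 of lowest. Protein's part of the squared displacement was 44.8% in the former and 41.8% in the latter, and it rose with span from 40.4% at 200 bp or less to 48.8% above 400 bp. Span and squares both come from the summits that chose the loci, so these parts are a description only. Of the 11 loci above percentile 90 in all lists, 3 were clearly split by protein, 0 by replicate number and 1 crossed. Clear splits of any kind numbered 8 there, and 1 list stood alone at the largest gap in 63.6% of the 11. Shares of these divisions over all narrow shared loci of like strength were not computed.

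The peaks themselves overlapped broadly even where their summits did not. All 4 peaks covered all 4 summits at 999 displaced loci (65.9%), while the background is 98.0%, and this share was tied to the choice of the loci, since distant summits are harder to cover. The stretch common to all 4 peaks was a median of 54.0% of the merged locus, against 58.2% at the other loci, and it was lower on 18 of 20 chromosomes, with a difference of −5.08 ± 3.88 points (SD over 20 chromosomes). No common stretch was left at 45 displaced loci, where peaks were joined only through another peak, and at 0 of the 29637 other narrow shared loci, which makes the background 0.144%. The choice of the loci favours this difference. The peak of GLYMA.13G317000 replicate 2, the narrowest, missed at least 1 of the other summits in 381 loci, that of GLYMA.06G314400 replicate 2 in 227, and those of replicates 1 of GLYMA.06G314400 and GLYMA.13G317000 in 108 and 83. The same counts by list were not made over all narrow shared loci, so this order may not be particular to displaced loci. Among the 118 clear splits by protein, 77 (65.3%) had all summits inside all peaks, as did 25 of the 47 with a gap over 300 bp.

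Peak outlines shifted less than the summits inside them. At clear splits by protein, the midpoint of the peaks moved in the direction of the summits in 94 of 118 loci, by a median of 59.5 bp where the summits moved by 266 bp. The same way was taken in 21 of 28 loci split by replicate number, by 19.8 bp, and in 18 of 23 crossed loci, by 28.8 bp. A summit lies inside its own peak, so a common direction of summit and midpoint is favoured by construction. These counts were not made over all narrow shared loci. The choice of the loci also favours summits far from the middle of their own peak. The median distance from that middle in the 4 lists was 75.5, 80.0, 87.0 and 64.3 bp in displaced loci, against 29.5, 24.5, 25 and 20.5 bp in the other narrow shared loci.

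Displaced loci were found on all 20 chromosomes. They made up 4.85% ± 0.670 of the narrow shared loci of a chromosome (SD over 20 chromosomes), from 3.26% on chromosome 16 to 5.87% on chromosome 19, and 6 lay on scaffolds. Chromosome 8 had the most, 114, and chromosome 11 the highest density, 2.51 per Mb. The outer 20% at each end of a chromosome held 68.5% ± 11.1 of the displaced loci and 69.3% ± 10.7 of the others, a difference of −0.74 ± 6.58 percentage points that was smaller than its spread and positive on 7 of 20 chromosomes. Chromosome length was taken from the last peak. Another locus of any kind lay within 1000 bp of 38.3% of displaced loci and of 35.1% of the others, and the median distance to it was 1546 and 1719 bp.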

How the data were processed

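Per the submitters' processing notes, reads were aligned with Bowtie 0.12.7 and peaks called with MACS2; no source used here names the build, the MACS2 version, the controls or the handling of duplicates. The authors deposited 1 list per precipitated sample, not pooled, with a fold enrichment (a ratio to local background), −log10 p and −log10 q, a score that follows −log10 q, and the summit offset of each peak. The lowest −log10 q was 2.00 to 2.23. Peaks were merged and measured with Python 3.11.15, numpy 2.4.6 and pandas 2.3.3, and printed positions are counted from 1. The routines for merging and for dividing summits were tested on simulated data. Fold enrichment was ranked within each list over the narrow shared loci and never compared in height between lists. Exact permutation tests used the 3 pairings of the 4 lists or sign changes over lists; loci are not replicates. Loci were named by rank of the lowest of their 4 percentiles: 6, 4 and 3 clear splits by protein, by replicate number and crossed, 2 for each lone list, 3 of greatest span and 3 on either side of the limit. The rule, the members and the alternatives were chosen with earlier results of these data known. No cell type markers apply to a peak list. The labels share replicate numbers between the proteins without saying that a number marks a common harvest or batch.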

Additional observations from a re-analysis of the deposited data

How the results depend on the processing

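The mean in place of the median was chosen after seeing the data; all other alternatives were planned. The number of displaced loci was 3473 with spans over 100 bp and 944 with spans over 200 bp, and 1232 to 1649 without 1 list. Division by protein stayed the most frequent of its kind under all 12 alternatives, at 13.1% to 20.7% with 4 lists. With 3 lists, where it means that the lone list of a protein stands apart, it reached 39.6% to 56.3%. The distance between minus within proteins had no stable sign: it was −12.5 to 85.8 bp without 1 list, positive without GLYMA.13G317000 replicate 1 (85.8 bp) or replicate 2 (7.5 bp), and 35.6 bp as a mean. In the replicate block, which compares the proteins within a number only, it was 0 bp. The labels do not say what the shared number, or a short tag that goes with it, marks, so the numbers are not treated as pairs. Replicate 1 minus replicate 2 differences correlated between the proteins at 0.043 for summit position and 0.251 for strength rank over displaced loci, and at 0.473 for strength rank over all narrow shared loci. The strength difference kept its sign under all 11 alternatives (−33.4 to −27.9 points). The difference in common stretch was −8.82 to −3.88 points without 1 list, −1.78 with spans over 200 bp, −2.04 with q of 1e-05 or less and −2.49 with 50% overlap. The outer-part difference ranged from −1.65 to 1.57 points, within its spread over chromosomes. The cause of these changes was not tested. Depth is unknown and limits how exactly weak summits can be placed.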
